A study of Mus musculus with 4 samples.

Results

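Genes known for their response to glucocorticoids were examined in soleus, a slow-twitch muscle of the mouse calf, in animals with and without hormone-sensitive lipase (HSL). The members were the probe sets that the array annotation assigned to exactly 1 gene symbol out of a list of 10: Fkbp5, Serpina3n, Tsc22d3, Sgk1, Mt1, Mt2, Glul, Cebpd, Cdkn1a and Nr3c1. Each of the 10 genes was represented, by 12 of the 12488 probe sets on the array, with Glul and Cdkn1a represented by 2 each. Fkbp5 and Serpina3n were selected on their measured difference between the genotypes in these same arrays, so their values are a description and no test was made on them. The other members were chosen by what is known of them, with results of these arrays in view. The tested animals were HSL-null and the others wildtype. Both were females aged 6 months, and the strain, the allele and the tissues that lack HSL are not named in the labels. Each genotype was represented by 1 pool of soleus from 5 mice, measured on 2 arrays that are technical duplicates. The spread between arrays therefore contains no variation between animals, no p-value was computed, and every difference compares 1 pool with another.

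Glucocorticoids such as corticosterone, the main one in mice, bind the glucocorticoid receptor, the product of Nr3c1, which is held in the cytoplasm by heat shock protein 90 and its co-chaperones. The hormone-bound receptor enters the nucleus and binds a DNA palindrome, the glucocorticoid response element, near the genes it induces. In skeletal muscle, an excess of the hormone is known for protein breakdown and for lower glucose uptake. HSL hydrolyses acylglycerols and, in steroid-producing tissues such as the adrenal, cholesteryl esters. The comparison asked whether the glucocorticoid-responsive genes moved together between the genotypes.

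They did not share a direction. Fkbp5 and Serpina3n were selected on their difference, so nothing is read from their opposite signs. Of the other members, Sgk1 was higher and Mt1 lower on both HSL-null arrays, with 1 pool per genotype. Fkbp5, a co-chaperone that lowers the receptor's affinity for hormone and is itself among the most widely induced targets of the receptor, was 1.62-fold lower in HSL-null. Sgk1, a serum- and glucocorticoid-induced kinase, was 1.40-fold higher, and Serpina3n, an acute-phase inhibitor of serine proteases, 2.08-fold higher. Mt1, 1 of the pair of metallothioneins on the list, was 1.25-fold lower, and the arrays of the genotypes overlapped for the other, Mt2. The receptor gene Nr3c1, Cebpd and the dim Tsc22d3 also had overlapping arrays in the values as deposited, and the paired probe sets of Glul and of Cdkn1a disagreed on whether the arrays overlapped.

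The regions before the annotated start sites of the members with the clearest differences, and of the metallothionein pair, are shown because they differ in their content of receptor motifs. The sequences are from RefSeq (GRCm38.p6), 250 bases each, 5′ to 3′ in the direction of the gene. Windows were used for 8 of the 10 genes, with 16 start sites in all. Capitals mark matches to any motif searched on both strands: the glucocorticoid palindrome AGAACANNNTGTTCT, its relaxed form GNACANNNTGTNC, its single arm AGAACA, the metal response element cores TGCACNC and TGCGCNC, the STAT motif TTCNNNGAA and the p53 core CATGNNNNNNCATG. The first 3 overlap one another by construction.
Fkbp5, chr17:28486150-28486399, minus strand: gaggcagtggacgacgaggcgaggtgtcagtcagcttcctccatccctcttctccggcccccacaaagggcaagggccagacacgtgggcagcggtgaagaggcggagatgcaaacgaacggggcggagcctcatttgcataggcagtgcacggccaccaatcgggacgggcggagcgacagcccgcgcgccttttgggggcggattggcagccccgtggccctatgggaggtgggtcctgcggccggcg
Serpina3n, chr12:104406458-104406707, plus strand: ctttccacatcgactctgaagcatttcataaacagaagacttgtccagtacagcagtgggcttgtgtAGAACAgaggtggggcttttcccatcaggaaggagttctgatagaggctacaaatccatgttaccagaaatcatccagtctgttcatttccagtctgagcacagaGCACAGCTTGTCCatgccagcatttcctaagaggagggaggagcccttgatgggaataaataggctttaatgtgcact
Sgk1, chr10:21993640-21993889, plus strand: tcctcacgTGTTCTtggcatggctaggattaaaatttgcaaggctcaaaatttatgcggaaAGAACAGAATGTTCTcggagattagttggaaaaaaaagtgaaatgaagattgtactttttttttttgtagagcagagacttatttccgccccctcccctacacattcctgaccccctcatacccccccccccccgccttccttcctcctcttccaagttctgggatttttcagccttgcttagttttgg
Mt1, chr8:94178839-94179088, plus strand: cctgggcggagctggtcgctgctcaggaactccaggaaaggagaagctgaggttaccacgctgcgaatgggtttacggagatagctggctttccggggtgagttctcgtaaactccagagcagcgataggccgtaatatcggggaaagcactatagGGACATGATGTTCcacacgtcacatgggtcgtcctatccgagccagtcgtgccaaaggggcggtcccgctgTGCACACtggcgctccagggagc
Mt2, chr8:94172368-94172617, plus strand: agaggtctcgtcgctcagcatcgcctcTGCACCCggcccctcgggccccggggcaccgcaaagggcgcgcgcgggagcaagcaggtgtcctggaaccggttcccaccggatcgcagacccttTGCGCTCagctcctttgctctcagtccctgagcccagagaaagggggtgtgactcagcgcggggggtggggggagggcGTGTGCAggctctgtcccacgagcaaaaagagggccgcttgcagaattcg

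The search covered 300 bases per window, the 250 shown or their equivalent and the first 50 after the start. The full palindrome was found in 3 of 32851 windows (0.00913%), among them 1 of the 6 Sgk1 windows, where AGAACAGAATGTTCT lay 189 to 175 bases before that start. The relaxed form was found in 0.475% of all windows and in those of 3 of the 8 genes: it lay within the Sgk1 palindrome, as GCACAGCTTGTCC 78 to 66 bases before the Serpina3n start and as GGACATGATGTTC 94 to 82 bases before the Mt1 start. The single arm, present in 19.0% of all windows, was found at Sgk1, Serpina3n and Tsc22d3. The Fkbp5 window held no match to any of the 7 motifs, which says only that these letters are not in that window. Metal response element cores, found in 12.6% (TGCACNC) and 15.4% (TGCGCNC) of all windows, were each present at both Mt1 and Mt2. The TGCGCNC core was also present at Glul and Sgk1. The STAT motif, found in 8.30% of all windows, was present at Sgk1 and Tsc22d3. The p53 core, found in 0.712% of all windows, was present at 1 of the 2 Cdkn1a windows as CATGTCTTGACATG. A match is a description of the letters and not a bound site.

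On each array the deposited intensities had the same trimmed mean of 100 and reached at most 5646 to 6183. Duplicate arrays correlated at r = 0.988 for HSL-null and r = 0.987 for wildtype over 6208 probe sets kept by a filter on level, which share the same arrays and are not independent. Lipe, the gene of HSL, measured 16.2 and 19.4 on the HSL-null arrays, against 71.4 and 70.2 on the wildtype arrays, so the deficit lay on the side of the HSL-null label. The slow-fibre markers that define soleus were present: Tnnt1 measured 6062 ± 172 in HSL-null and 5867 ± 313 in wildtype, and Myh7 5201 ± 92.6 in HSL-null and 5122 ± 330 in wildtype (SD, n = 2 arrays). As a sign of RNA quality, the beta-actin control gave a 3′ over 5′ ratio of 0.816 and 0.823 in HSL-null and 0.688 and 0.706 in wildtype. The Gapdh control gave 0.912 and 0.922 in HSL-null and 0.927 and 0.955 in wildtype. The part of these ratios in the differences below was not tested.

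Differences are given as log2 of HSL-null over wildtype with a standard error from the duplicates. The word separated is used where each of the 4 pairs of an HSL-null and a wildtype array differed in the same direction by at least 1.5-fold. Of the 12 member probe sets, 11 (9 genes) had a mean intensity at or above the filter of 27.7, and Tsc22d3 did not. Of the 11, 1 was separated higher (Serpina3n), 1 lower (Fkbp5) and 9 neither. Of all 6208 kept probe sets, 28 were separated, or 0.451% (0.226% higher and 0.226% lower), but the 2 members called were chosen for that difference and nothing is read from their count. Without the size threshold, all 4 pairs had one sign for 6 of the 11, 3 higher and 3 lower, beside 40.6% of all kept probe sets (19.5% higher and 21.1% lower). The median difference of the 11 was -0.06, with 4 above 0 and 7 below, against a median of -0.0022 and 49.5% above 0 over all kept probe sets. With wildtype array 2 left out, which leaves 2 array pairs, 10 of 12 member probe sets lay on one side, beside 69.99% of all probe sets then kept.

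**Figure D1:**
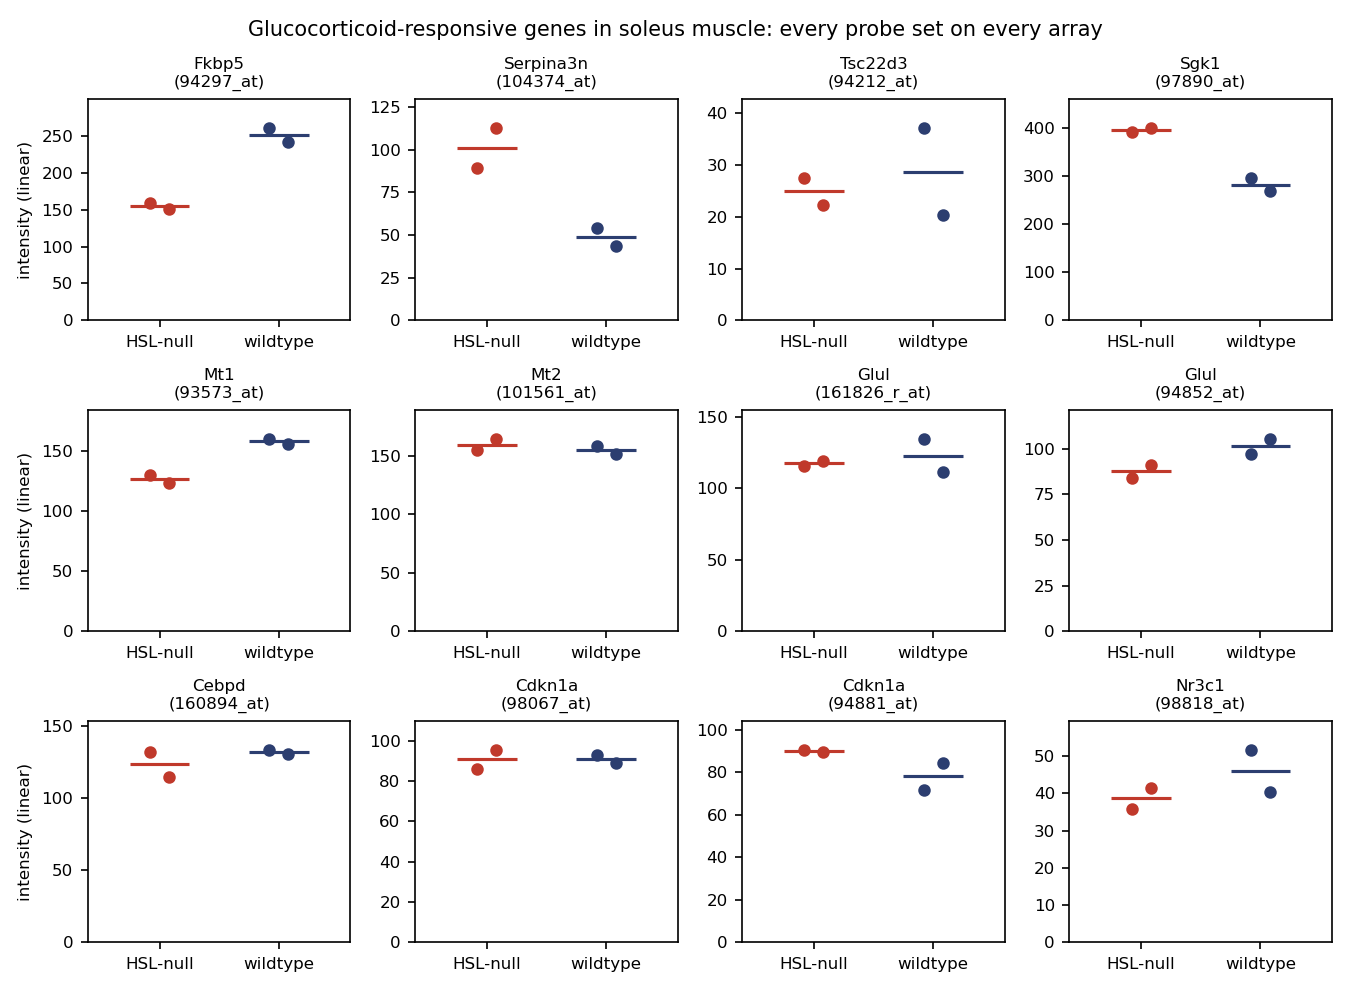
Linear intensity (vertical axis, starting at 0) of each of the 12 member probe sets on the 2 HSL-null arrays (red) and the 2 wildtype arrays (blue); bars are the means of 2 technical duplicates of 1 pool. Fkbp5 and Mt1 lie lower and Serpina3n and Sgk1 higher on both HSL-null arrays, while Mt2, Cebpd, Tsc22d3 and Nr3c1 overlap.

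Fkbp5 (probe set 94297_at) measured 158 and 151 on the HSL-null arrays, against 261 and 242 on the wildtype arrays. Both HSL-null values lay below both wildtype values, and the gap between the genotypes exceeded the gap between duplicates. The means were 155 ± 5.37 in HSL-null and 251 ± 13.2 in wildtype (SD, n = 2 arrays), a log2 difference of -0.70 ± 0.064 (SE), or 38.4% lower. The 4 array pairs ranged from 1.53-fold to 1.73-fold. Of all 6208 kept probe sets, 0.983% differed by at least as much in either direction. Fkbp5 was selected on its difference, so nothing is read from this share or from the gap between the genotypes. Under quantile normalization the smallest pair difference was -0.58, under the 1.5-fold threshold, and Fkbp5 was not called.

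The arrays overlapped for the receptor itself. Nr3c1 (98818_at) measured 35.9 and 41.5 in HSL-null, against 51.7 and 40.4 in wildtype. The second HSL-null array lay above the second wildtype array, so the genotypes overlapped. The log2 difference was -0.24 ± 0.21, and 16.8% of kept probe sets differed by as much. This overlap depended on the scaling: all 4 pairs were lower under cyclic loess, quantile normalization and median centring, the smallest by -0.02, -0.02 and -0.03. Leaving out wildtype array 1 gave a difference of -0.07, and leaving out wildtype array 2 gave -0.42. Leaving out the first HSL-null array gave -0.14, and leaving out the second HSL-null array gave -0.35.

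Of the other genes around the receptor, Fkbp4, the co-chaperone that competes with the product of Fkbp5 and favours receptor transport to the nucleus, measured 609 and 535 in HSL-null, against 703 and 730 in wildtype. Both HSL-null values were lower (-0.33 ± 0.098), and a second Fkbp4 probe set was lower by less (-0.11 ± 0.077). Stip1, the adaptor that brings heat shock proteins 70 and 90 together on the receptor, differed by -0.21 ± 0.067, again lower on both HSL-null arrays. Med1 is the Mediator subunit through which nuclear receptors reach the transcription machinery. It measured 60.8 and 55.3 in HSL-null, against 21.9 and 26.2 in wildtype (1.28 ± 0.15). It was the single separated gene of the 16 kept on this list, beside 0.451% of all kept probe sets. Both wildtype values lay below the level filter of 27.7, so Med1 was kept only through its HSL-null values. Nothing is read from its call. Hsp90aa1, the receptor's main inducible chaperone, and Hsd11b1, the enzyme that regenerates active glucocorticoid inside cells, had overlapping arrays, at -0.02 ± 0.065 and 0.04 ± 0.20. The last 2 were chosen after their values were seen. Of 16 chaperone, coregulator and steroid metabolism genes kept, 5 lay above 0 and 11 below, with a median of -0.04.

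Sgk1 (97890_at), a kinase that keeps ion channels and transporters at the cell surface, measured 393 and 401 in HSL-null, against 297 and 269 in wildtype. Its duplicates were close, and both HSL-null values lay well above both wildtype values. The means were 397 ± 5.94 in HSL-null and 283 ± 20.01 in wildtype, a log2 difference of 0.49 ± 0.074. The 4 pairs ranged from 1.32-fold to 1.49-fold, so that Sgk1 was the member nearest to the threshold from outside and Fkbp5, at 1.53-fold, nearest from inside. Sgk1 is also the gene whose window held the full palindrome, and its difference was opposite in sign to that of Fkbp5. As many as 2.90% of kept probe sets differed by at least as much.

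Serpina3n (104374_at), which in mice is induced by glucocorticoids and by inflammatory cytokines, measured 89.5 and 113 in HSL-null, against 53.9 and 43.5 in wildtype. The lower HSL-null value was 1.66-fold above the higher wildtype value. The duplicates spread more than those of Fkbp5 or Sgk1, by 1.26-fold in HSL-null and 1.24-fold in wildtype. The means were 101 ± 16.5 in HSL-null and 48.7 ± 7.35 in wildtype, a log2 difference of 1.05 ± 0.23. Related Serpina3 genes form a cluster of similar sequence, and whether their transcripts reach this probe set was not tested. With the level filter raised to the 75th percentile of all probe sets, Serpina3n was too dim to be kept.

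Other acute-phase and STAT3-responsive genes gave no separated member among 6 kept, with 3 above 0, 3 below and a median of 0.04. Stat3, the transcription factor of this response, differed by 0.10 ± 0.070, and by 0.02 ± 0.072 on a second probe set. Il6st, the shared receptor subunit of interleukin 6 cytokines, differed by -0.08 ± 0.042 on its brighter probe set and 0.18 ± 0.11 on the other.

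Tsc22d3 (94212_at), which encodes the leucine zipper protein GILZ and is a direct target of the receptor, measured 27.5 and 22.3 in HSL-null, against 37.2 and 20.3 in wildtype. The wildtype duplicates differed by 1.83-fold, against 1.11-fold between the genotypes (log2 difference -0.15 ± 0.46). Both HSL-null values lay between the 2 wildtype values. A difference of the size seen in Fkbp5, 1.62-fold, is smaller than the spread between those duplicates.

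The 2 metallothioneins are small cysteine-rich proteins that bind zinc and copper, and are induced by metals and by glucocorticoids. Mt1 (93573_at) measured 130 and 123 in HSL-null, against 160 and 156 in wildtype. Both HSL-null arrays were lower, with pair differences of -0.38 to -0.27 around a mean of -0.32 ± 0.041 (log2), and 9.21% of kept probe sets differed by as much. Mt2 (101561_at) measured 155 and 165 in HSL-null, against 158 and 152 in wildtype, a log2 difference of 0.04 ± 0.054 with overlapping arrays. The genes lie next to each other and are closely related, so that some signal may be shared between their probe sets. Mt3, a related gene best known from brain, measured 108 and 110 in HSL-null, against 129 and 141 in wildtype (-0.31 ± 0.068).

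Of the 9 metal- and oxidant-responsive genes kept, 4 lay above 0 and 5 below, with a median of -0.02 and 0 separated. Hmox1, the heme oxygenase induced by oxidants, and Mtf1, the zinc sensor that drives both metallothioneins, were chosen after their values were seen and overlapped, at -0.07 ± 0.098 and 0.05 ± 0.11. Srxn1, which repairs oxidised peroxiredoxins, was lower on both HSL-null arrays on its brighter probe set (-0.47 ± 0.17) and higher on the other (0.18 ± 0.12).

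Glul encodes glutamine synthetase, which glucocorticoids induce in muscle. Its brighter probe set (161826_r_at) measured 116 and 119 in HSL-null, against 135 and 111 in wildtype, a log2 difference of -0.06 ± 0.14. The other (94852_at) measured 84.1 and 91.2 in HSL-null, against 97.4 and 106 in wildtype, a log2 difference of -0.21 ± 0.082. The arrays overlapped on the first and not on the second, where all 4 pairs were lower by 1.07-fold to 1.25-fold. Of 5 other glutamine and glutamate genes kept, 4 lay below 0. Slc38a2, a glutamine transporter, differed by -0.13 ± 0.11 and Got2, the mitochondrial aspartate aminotransferase, by -0.08 ± 0.029.

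Cebpd (160894_at), a transcription factor of the acute-phase and muscle wasting response, measured 133 and 115 in HSL-null, against 134 and 131 in wildtype. The first HSL-null array lay within the wildtype values, and the difference was -0.10 ± 0.10. Cdkn1a encodes the cell cycle inhibitor p21, which both p53 and glucocorticoids induce. Probe set 98067_at measured 85.9 and 95.5 in HSL-null, against 92.8 and 88.8 in wildtype, a difference of -0.0033 ± 0.083. Probe set 94881_at measured 90.6 and 89.7 in HSL-null, against 71.7 and 84.6 in wildtype, a difference of 0.21 ± 0.12 with all 4 pairs higher. It was 0.09 without wildtype array 1 and 0.33 without wildtype array 2. The 2 probe sets of Cdkn1a thus gave different answers, and 21.2% of kept probe sets differed by as much as the second.

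Among relatives of the members (Fkbp, Tsc22d, C/EBP, metallothionein and cell cycle inhibitor genes), 12 were kept, 5 above 0 and 7 below, with 0 separated and a median of -0.03. Cebpa, the adipocyte and liver member of the C/EBP family, measured 132 and 141 in HSL-null, against 165 and 184 in wildtype (-0.35 ± 0.092).

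Of 7 p53 targets kept, 6 lay above 0 and 1 below (median 0.05), and 0 were separated. Gadd45a, a growth arrest gene, was higher on both HSL-null arrays (0.31 ± 0.093), and so was Ccng1, cyclin G (0.20 ± 0.12). Mdm2, the ligase that degrades p53, was lower (-0.26 ± 0.145).

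**Figure D2:**
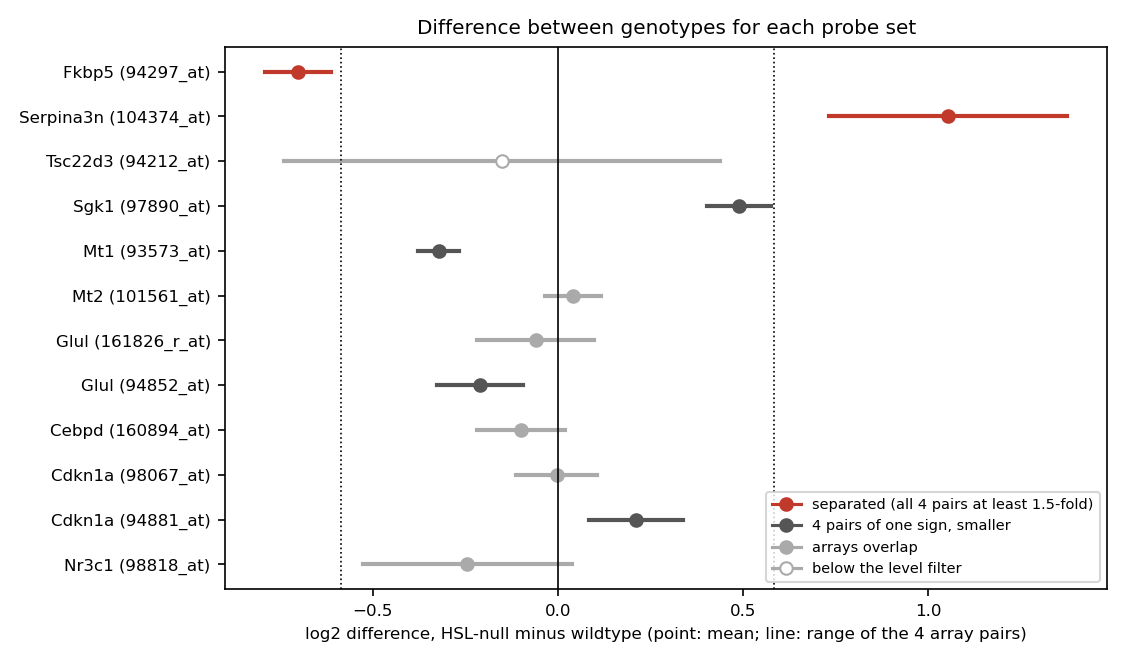
Log2 difference between HSL-null and wildtype for each member probe set (points) with the range of the 4 array pairs (lines); dotted lines mark 1.5-fold. Fkbp5 lies wholly beyond the lower line and Serpina3n wholly beyond the upper one, and the Sgk1 range stops at 0.58, short of it.

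A longer list of genes induced by glucocorticoids in various tissues gave a small shift the other way from Fkbp5. Of 37 genes, 29 were on the array and 21 passed the level filter, of which 14 lay above 0 and 7 below. All 4 array pairs were higher for 10 and lower for 3, beside 19.5% higher and 21.1% lower among all kept probe sets, and 0 were separated. With median centring these counts were 7 higher and 4 lower. The median was 0.10, against -0.0041 over all 4851 kept genes, of which 48.8% lay above 0. It was 0.05 without HSL-null array 1 and 0.05 without HSL-null array 2, and 0.06 with median centring, with no filter, with the 75th percentile filter and with all probe sets of a gene averaged. Median centring also moved the median of all kept probe sets, to -0.04, so that the list lay 0.10 above it with and without centring.

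Per1, a clock gene with a glucocorticoid response element, measured 69.9 and 87.0 in HSL-null, against 50.7 and 50.1 in wildtype (0.63 ± 0.16). Per1 was higher on both HSL-null arrays, as Sgk1 was. Angptl4, a secreted inhibitor of lipoprotein lipase, measured 41.1 and 51.0 in HSL-null, against 35.5 and 37.9 in wildtype (0.32 ± 0.16). Ddit4, an inhibitor of the growth kinase complex mTORC1 that glucocorticoids induce in muscle, went the other way, at 55.0 and 45.7 in HSL-null, against 67.9 and 62.5 in wildtype (-0.38 ± 0.15).

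Further genes of the list, chosen after their values were seen, differed by less. Pdk4, the kinase that shuts off pyruvate dehydrogenase, differed by 0.18 ± 0.057, and Anxa1, an anti-inflammatory annexin, by 0.27 ± 0.072, with both higher on both HSL-null arrays. Txnip, which binds thioredoxin and limits glucose uptake, differed by -0.13 ± 0.0235 and the survival gene Bcl2l1 by -0.18 ± 0.057. Dusp1, the phosphatase that turns off stress kinases, had overlapping arrays at 0.00046 ± 0.11, and so had the transcription factor Zbtb16 at -0.07 ± 0.055. Klf9, also a transcription factor, was higher on both HSL-null arrays by a small amount (0.10 ± 0.046). Of 14 inflammatory genes that glucocorticoids repress, all were on the array and 0 passed the level filter.

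**Figure D3:**
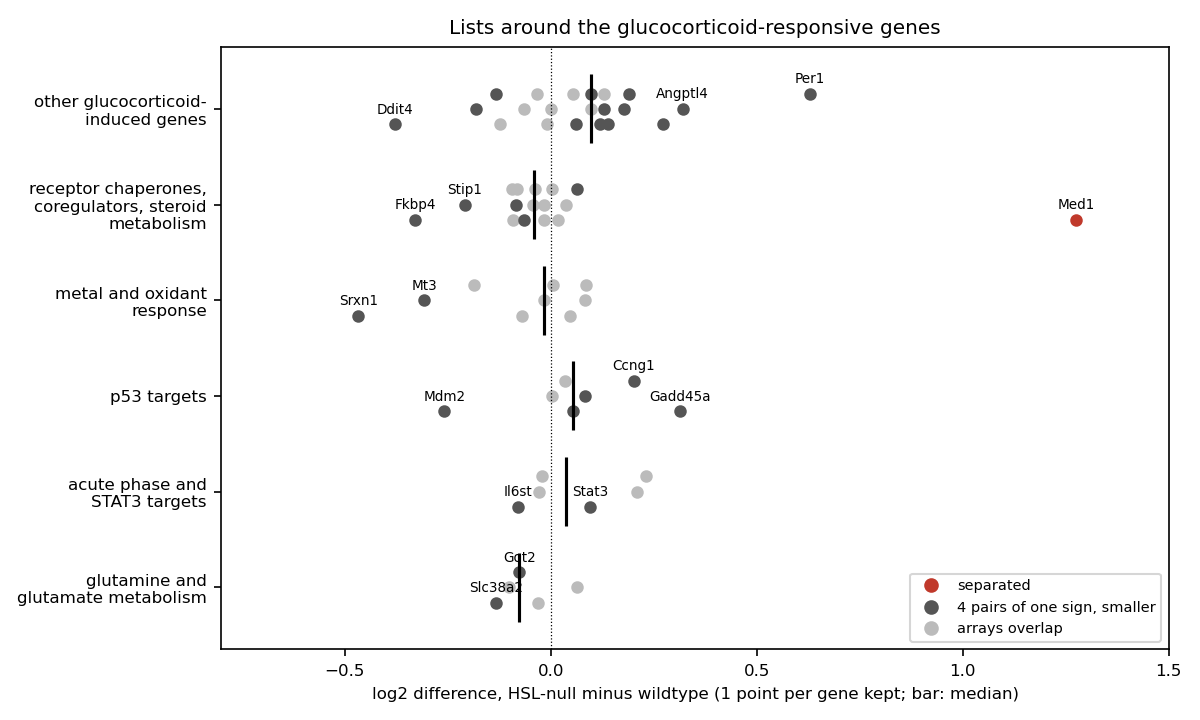
Log2 difference between HSL-null and wildtype of each gene kept in 6 lists around the members (1 point per gene; vertical bars are medians; shades give separated genes, genes with 4 pairs of one sign, and genes whose arrays overlap). Med1, kept only through its HSL-null values, is the single separated gene, and the list medians lie between -0.08 and 0.10.

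Levels in whole muscle mix cell types, and fewer cells of a type and less RNA per cell cannot be told apart. Of 10 white adipocyte markers on the array, 8 were kept, 6 below 0 and 2 above (median -0.22). All 4 pairs were lower for 5 and higher for 1, beside 21.1% lower and 19.5% higher among all kept probe sets. Of the 8, 1 was separated, beside 0.451% of all kept probe sets. It was Adipoq, which measured 73.8 ± 0.424 in HSL-null and 154 ± 4.95 in wildtype. Agt, angiotensinogen, was higher on both HSL-null arrays, at 66.6 and 44.7, against 25.3 and 30.4 in wildtype (0.98 ± 0.32). The summed intensity of the 10 was 4493 to 4847 in HSL-null and 4887 to 5097 in wildtype. Most of it came from Car3, a carbonic anhydrase that slow muscle fibres also express, at 3803 and 3571 in HSL-null, against 3723 and 3417 in wildtype. Sums without Car3, added after the values were seen, were 922 to 1044 in HSL-null and 1374 to 1470 in wildtype. Fibroblast and matrix markers were higher in the HSL-null pool: all 9 kept lay above 0 (median 0.34), with sums of 4210 to 4364 in HSL-null and 3704.5 to 3707.5 in wildtype. Fast-fibre markers summed to 20576 to 20752 in HSL-null and 16080 to 17648 in wildtype. Of 9 kept, 8 lay above 0 and 1, Mylpf, below (-0.27 ± 0.24), with a median of 0.08. All 4 pairs were higher for 4, beside 19.5% of all kept probe sets, and the arrays overlapped for the other 5. Of the 9, 3 were separated higher (Myh4, Actn3 and Pvalb), beside 0.226% of all kept probe sets. A second Myh4 probe set, dim at a mean of 28.45, had overlapping arrays (0.15 ± 0.15). Second probe sets of Actn3 and Pvalb were separated higher too. Endothelial markers, 1 above 0 and 7 below, summed to 982 to 984 in HSL-null and 1002 to 1058 in wildtype. Of the lymphocyte and mast cell markers, the 3 kept were mast cell markers (Tpsb2, Cma1 and Cpa3), and no lymphocyte marker was kept. These 3 lay below 0, but a second Tpsb2 probe set was higher on both HSL-null arrays (0.13 ± 0.055). The sums of the macrophage markers overlapped, at 668 to 679 in HSL-null and 658 to 696 in wildtype. Of 7 kept, 6 had overlapping arrays and 1, C1qa, was higher in all 4 pairs (0.35 ± 0.17), beside 19.5% of all kept probe sets. None of the markers on these lists was at 0 on any array, and their part in the member differences was not tested.

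Over the 4 arrays, the genes outside the list whose log2 profiles were closest to Fkbp5 were Jup (plakoglobin, of cell junctions), Polb (DNA polymerase beta) and Noct (nocturnin, which shows a daily rhythm), at Euclidean distances of 0.127 to 0.128 among 4842 candidates. Noct measured 279 and 273 in HSL-null, against 420 and 406 in wildtype. Closest to Serpina3n were Col9a1 (a collagen chain), Krt6a (a keratin) and Aqp4 (a water channel of fast fibres), at 0.346 to 0.364. Col9a1, at 23.2 and 19.9 in wildtype, was kept only through its HSL-null values, which were far apart (33.7 and 59.3). The wildtype mean of Krt6a, 27.6, also lay just below the level filter of 27.7. With 4 arrays of 2 pools, closeness mostly restates the size of the genotype difference.

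**Figure D4:**
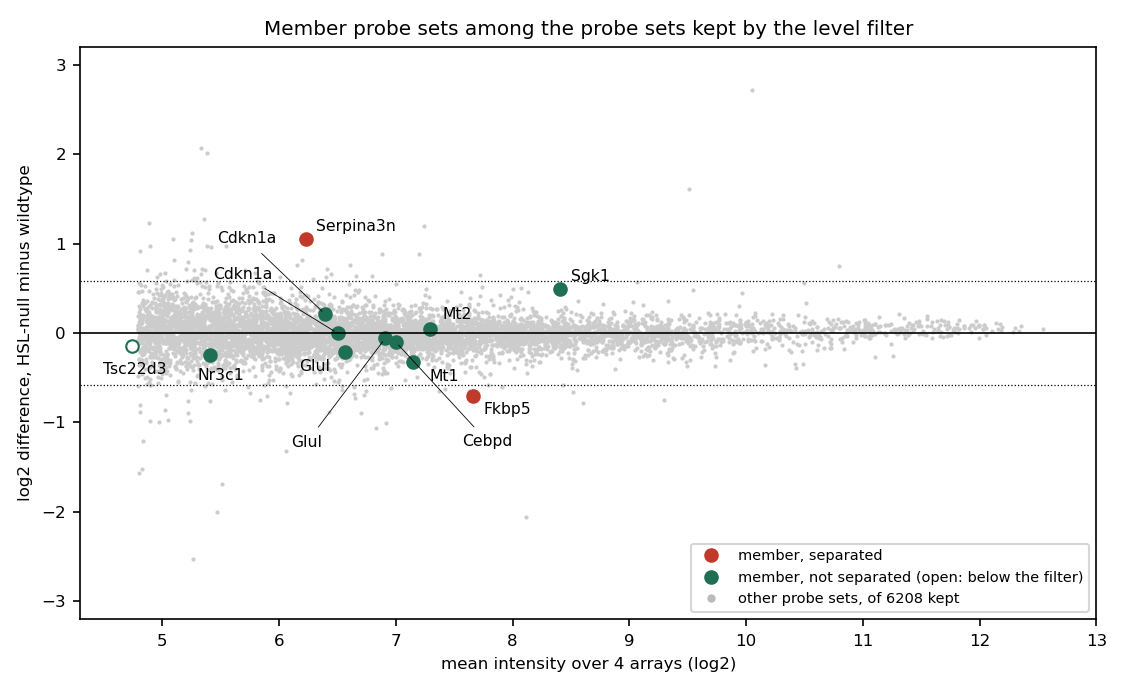
Log2 difference between HSL-null and wildtype against mean intensity (log2) for the 6208 probe sets kept (grey) and the 12 member probe sets (red where separated, green where not; the open circle is Tsc22d3, below the filter). The differences spread more among dim probe sets, and Sgk1 and Fkbp5 lie where the grey points are tighter than around Tsc22d3 and Nr3c1.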

How the data were processed

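Soleus RNA was measured on 4 arrays. The authors deposited 1 linear intensity per probe set and array, already scaled to a trimmed mean of 100 (2% trimmed at each end, as tested on the values); the sources used here do not name the software or genome build. The 66 control probe sets were left out. Symbols came from the platform annotation, updated by gene ID through RefSeq (10839 of 10855 probe sets with 1 symbol matched). Intensities were floored at their 25th percentile (5.70) and log2-transformed, and probe sets with a mean at or above the median (27.7) were kept. Duplicates of 1 pool per genotype allow no test, so separation over 4 array pairs was used. Among the members, no start-site window was available for Cebpd. Nr3c1 was left out of the member windows by choice, so its absence there says nothing of its motifs.

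The members and 16 further gene lists were chosen with earlier results of these data known. Named were every member probe set, Lipe, in each list the separated genes and the 3 largest one-sided differences, and the 3 closest profiles to Fkbp5 and to Serpina3n; marker lists are given by counts and sums, with a few examples. A list gene was represented by its brightest kept probe set. Alternatives covered scaling (limma 3.58.1 in R 4.3.3), floor, filter, threshold, each array left out and the replicate number as a block. Python 3.11.15, numpy 2.4.6 and pandas 2.3.3 were used.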

Additional observations from a re-analysis of the deposited data

How the results depend on the processing

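Leaving out 1 array gave 2 separated members each time, 8 to 10 one-sided members (beside 68.9% to 71.3% of all kept probe sets, against 40.6% with all arrays), 81 to 109 separated probe sets in all (2 array pairs in place of 4) and a median of 0.051 to 0.10 for the longer glucocorticoid-induced list. Separated members numbered 1 with quantile normalization, 1 with the 75th percentile filter and 0 at 2-fold. Separated probe sets in all numbered 175 with no filter, 10 with the 75th percentile filter, 95 at 1.3-fold and 14 at 2-fold. One-sided members numbered 3 with the 75th percentile filter, where 6 member probe sets were kept. The longer list's median was 0.063 with median centring, 0.060 with no filter, 0.057 with the 75th percentile filter and 0.060 with all kept probe sets of a gene averaged. The cause of the moves was not tested, except that a stricter filter or threshold leaves fewer probe sets. With the replicate number as a block, 2 members and 35 probe sets were separated and 7 members were one-sided, beside 52.4% of all kept probe sets. Deviations of same-numbered arrays correlated at -0.0865, so the numbers give no sign of pairing.

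Across the alternatives other than the size thresholds, Fkbp5 stayed between -0.75 and -0.65, Serpina3n between 0.89 and 1.22, Sgk1 between 0.42 and 0.56 and Mt1 between -0.36 and -0.29. Tsc22d3 ranged from -0.59 to 0.29, and Mt2, Cebpd, the brighter Glul and the brighter Cdkn1a probe set also crossed 0. Nr3c1 ranged from -0.42 to -0.07 and the other Cdkn1a probe set from 0.09 to 0.33. At 1.3-fold Sgk1 was called too. With 2 arrays of 1 pool per genotype, no alternative adds a check across animals.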

Other observations

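Of the kept genes on the array, 17 had the relaxed glucocorticoid motif GNACANNNTGTNC in a start-site window. Of these, 10 lay above 0 and 7 below, with all 4 array pairs higher for 6 and lower for 7, beside 19.5% higher and 21.1% lower among all kept probe sets. The genes were grouped by a motif and no test was made on the counts. The 17 include the members Serpina3n, Sgk1 and Mt1, which enter these counts and the median. Serpina3n was the single separated gene among the 17, but it was selected on that difference and nothing is read from this. The median log2 difference was 0.08, against -0.0041 over all 4851 kept genes. Of the 3 genes with the full palindrome, Sgk1 was the only one matched to a probe set. The single arm AGAACA was in windows of 587 kept genes, 300 above 0 and 287 below, with a median of 0.0019.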
